A study of Mus musculus with 6 samples.

Results

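Markers of the primitive and parietal endoderm, layers that line the early yolk sac, were followed in a mouse cell line. The 9 genes were Sparc, Gata4, Gata6, Sox7, Sox17, Dab2, Thbd, Nid1 and Foxa2, and they were taken by gene symbol. Of these, 7 were among the 15398 genes used, and 6 passed the filter on low counts and were tested, among 11722 tested genes in all. Gata4 on chromosome 14 and Sox17 on chromosome 1 have no row in the gene table or in the transcript table used here, so they are not analysed here. RNA was sequenced from 3 libraries of bEND.3 cells, a mouse line described as brain endothelial, that stably expressed circSlc17a5, a circular form of RNA from the Slc17a5 locus by its name. The controls were 3 libraries of the same line carrying the corresponding empty vector. The labels call both a stable cell line and do not say how many clones were used or whether the replicates came from separate cultures, so every p-value measures the spread of these samples, which may be technical.

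The primitive endoderm is the layer of the early mouse embryo that lies next to the pluripotent epiblast, and it gives rise to the visceral and the parietal endoderm of the yolk sac. GATA6 starts this programme, and GATA4, SOX17 and SOX7 act after it. Parietal endoderm cells secrete a thick basement membrane of laminin, type IV collagen, nidogen and SPARC, and they carry thrombomodulin, the product of Thbd, on their surface. Several of these genes are also used by other cells: endothelial cells express Sox7, Sox17, Sox18, Thbd and Sparc, and FOXA2 is also a factor of the definitive endoderm.

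For 2 of the markers the deposited transcript table splits the reads over annotated forms whose shares differed between libraries, and the sequences that tell these forms apart are shown first. They are mRNA sequence in the sense direction, from the GENCODE vM21 transcripts linked to each RefSeq name. In Sparc, NM_009242.5 and NM_001290817.1 differ by 3 bases at the junction of exon 2 and exon 3 (chr11:55407259-55409945, minus strand), inside the protein coding gene. Capitals mark the 3 bases that only the first form holds.
Sparc NM_009242.5: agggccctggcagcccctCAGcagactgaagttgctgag
Sparc NM_001290817.1: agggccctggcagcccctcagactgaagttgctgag

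In Dab2, a 654-base exon is kept in some forms and skipped in others, and it follows either an exon of 63 bases or one of 54 bases. The first 18 bases of the long exon are in capitals, and each line starts with the last 18 bases of the exon before it. The junctions with the long exon span chr15:6424680-6429313 and chr15:6424233-6429313, and those that skip it span chr15:6424680-6430971 and chr15:6424233-6430971, all on the plus strand.
Dab2 NM_023118.5: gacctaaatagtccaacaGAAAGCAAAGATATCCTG
Dab2 NM_001310446.1: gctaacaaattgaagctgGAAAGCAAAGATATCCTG
Dab2 NM_001008702.2: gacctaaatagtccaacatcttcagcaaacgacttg
Dab2 NM_001102400.1: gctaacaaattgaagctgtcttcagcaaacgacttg

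Library totals lay between 16848513 and 17600230 counts. Over all genes, 22% of the 11722 tested were called changed by edgeR's quasi-likelihood test at a Benjamini-Hochberg adjusted p under 0.05, with 11.8% higher and 10.2% lower in circSlc17a5 cells. On smooth muscle and fibroblast genes 2 libraries stood apart: circSlc17a5 replicate 2 and control replicate 1 had 6.27 and 5.79 TPM of Tagln, and the other 4 libraries had at most 0.86 TPM. The 0.86 TPM was in circSlc17a5 replicate 3, which lay between. It also had 77 counts of Col1a2, against 7 in circSlc17a5 replicate 1 and 3 and 0 in control replicates 2 and 3. Of 17 endothelial genes in the table, 10 were below the filter on low counts. Pecam1, the platelet endothelial adhesion molecule, had between 0.09 and 0.23 TPM over the 6 libraries, Cdh5, vascular endothelial cadherin, between 0.19 and 0.54 TPM, and Kdr, the main VEGF receptor, at most 0.07 TPM. Cldn5, a tight junction protein of brain endothelium, had 1 count in control replicate 2 and 0 in the other 5 libraries. Egfl7, Plvap, Flt1 and Ets1 were between 6.1 and 15.2 TPM.

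The secreted matrix genes Sparc and Nid1 were in the top 1.64% and the top 6.46% of genes in every library, Dab2, Gata6 and Foxa2 were at intermediate levels, Thbd was low and Sox7 was at the detection limit. Levels are given in TPM, which sums to the same total in each library and corrects for gene length, and a rank of 1 is the highest TPM of a library. None of the 6 tested markers passed the threshold of edgeR's quasi-likelihood test, against 22% of all tested genes, and 1 of the 6, Dab2, had an unadjusted p under 0.05, against 39.1% of all tested genes. DESeq2 also called 0 of them. In the authors' deposited table, 15% of 15383 genes with a q-value were under 0.05, and none of the 7 markers with a row was. The median log2 fold change of the 6 was 0.10, against 0.00 over all tested genes, and the median size of the change without its sign was 0.153, against 0.193.

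**Figure D1:**
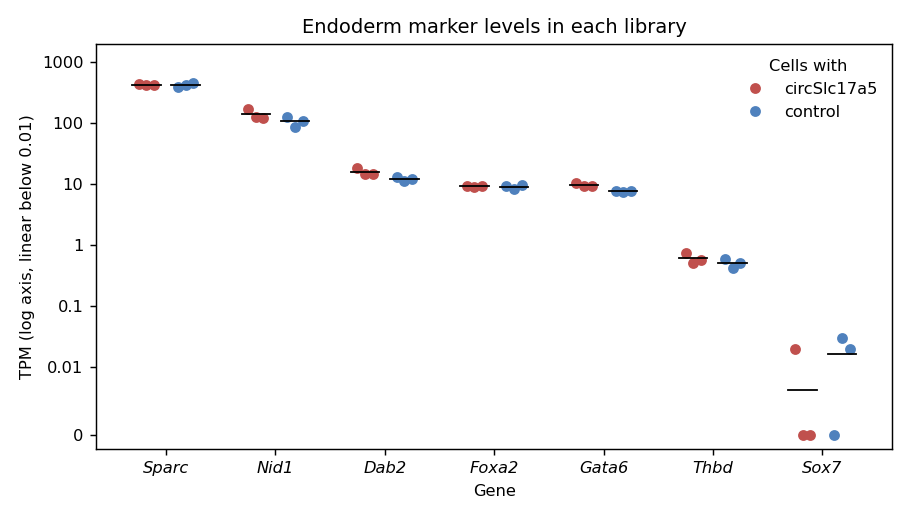
TPM of the 7 markers with a row, per library, on a log axis that is linear below 0.01. Points are libraries in replicate order, with circSlc17a5 left of control for each gene, and bars are means of 3 libraries. Sparc lies near 400 TPM, Nid1 near 100, Dab2, Foxa2 and Gata6 near 10, Thbd under 1 and Sox7 at or near 0.

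Among the transcription factors, Gata6 (chr18:11052510-11085636), a zinc finger protein that starts primitive endoderm fate, had 10.5, 9.26 and 9.54 TPM in circSlc17a5 libraries 1 to 3, against 7.91, 7.61 and 7.86 TPM in control libraries 1 to 3. All 3 circSlc17a5 libraries were above all 3 controls. On log2(TPM + 1) Gata6 was at 0.29, where the median of all tested genes was itself at 0.14. Its TPM rank lay between 6142 and 6525, or 39.89% to 42.38% of the way down the table. On normalised CPM, counts relative to a library size scaled by TMM, Gata6 averaged 27.9 ± 0.411 in circSlc17a5 cells and 25.4 ± 0.603 in control cells (SD, n = 3 each), again without overlap. The share of genes without overlap was counted in normalised CPM only, where it was 42.6% of all tested genes. The log2 fold change was 0.14 (SE 0.0779), and it did not pass the threshold (edgeR adjusted p = 0.219). In bulk RNA, fewer cells with a transcript and less of it per cell cannot be told apart, and this holds for every level given here.

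Foxa2 (chr2:148042877-148046969), a forkhead factor of visceral and definitive endoderm, had 9.35, 9.07 and 9.35 TPM in circSlc17a5 libraries, against 9.33, 8.45 and 9.70 TPM in control libraries, so the groups overlapped in TPM. On normalised CPM it averaged 16.4 ± 1.07 in circSlc17a5 cells and 18.4 ± 0.742 in control cells (SD, n = 3 each), and there the groups did not overlap. The log2 fold change was -0.17 (SE 0.093, edgeR adjusted p = 0.194). On log2(TPM + 1) Foxa2 was at 0.02, where the median of all tested genes was itself at 0.14. Gata6 was above Foxa2 within each circSlc17a5 library, though their ranges met, and Foxa2 was above Gata6 in each control library. The authors' table lists Foxa2 on the plus strand and RefSeq on the minus strand, as for 14.3% of the genes compared, and whether counting used strand is not stated. Gata6, Dab2 and Nid1 overlap antisense genes in GENCODE, and without strand such reads cannot be told apart.

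Sox7 (chr14:63943706-63950732), a SoxF factor of parietal endoderm and endothelium, had 1, 0 and 0 counts in circSlc17a5 libraries, against 0, 2 and 1 counts in control libraries. Its TPM was at most 0.03, and it was below the filter and left out of the test. Both groups were at or below the floor of 3 counts, so no fold change is given. Its SoxF relative Sox18 had at most 1 count in any library.

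Among the matrix genes, Sparc (chr11:55394159-55420080), a collagen-binding glycoprotein, had 444.7, 418.5 and 419.8 TPM in circSlc17a5 libraries, against 398.6, 422.1 and 454.3 TPM in control libraries. The groups overlapped, and in all libraries Sparc ranked between 228 and 252, in the top 1.64% of genes. Normalised CPM averaged 813.2 ± 25.5 in circSlc17a5 cells and 888.9 ± 61.7 in control cells (SD, n = 3 each). The log2 fold change was -0.13 (SE 0.081, edgeR adjusted p = 0.258), and on log2(TPM + 1) it was 0.01, below the shift of the median gene.

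Nid1 (chr13:13437602-13512275), or nidogen-1, joins laminin to type IV collagen in basement membranes. It had 170.1, 126.2 and 124.5 TPM in circSlc17a5 libraries, against 127.9, 86.5 and 108.8 TPM in control libraries. Control replicate 1 was above 2 of the circSlc17a5 libraries, so the groups overlapped. Nid1 ranked between 563 and 995, and its log2 fold change was 0.19 (SE 0.117, edgeR adjusted p = 0.25). Without control replicate 1 it was 0.30 (edgeR adjusted p = 0.0338), and without both libraries that stood apart 0.34 (edgeR adjusted p = 0.0486). With an offset for GC content and length it was 0.01. Leaving out control replicate 1, or both libraries, also took the calls over all genes to 4699 or 3680, against 2584. Nid2, the second nidogen, had 0, 5 and 0 counts in circSlc17a5 libraries, against 2, 0 and 0 in control libraries.

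Dab2 (chr15:6299788-6440715), a clathrin adaptor that takes receptors from the surface into the cell, lay nearest to the threshold of the 6. It had 18.7, 14.6 and 14.8 TPM in circSlc17a5 libraries, against 13.1, 11.3 and 12.4 TPM in control libraries, and all circSlc17a5 libraries were above all controls. On log2(TPM + 1) Dab2 was at 0.36, where the median of all tested genes was itself at 0.14. Normalised CPM averaged 65.2 ± 3.82 in circSlc17a5 cells and 54.7 ± 4.31 in control cells (SD, n = 3 each), also without overlap. The estimate was 1.19-fold, a log2 fold change of 0.25 (SE 0.0836), with an edgeR p of 0.0115 and an edgeR adjusted p of 0.0514. The authors' deposited table gives it a q-value of 0.0673. Without control replicate 1 the log2 fold change was 0.30 (edgeR adjusted p = 0.0136), without both libraries that stood apart 0.33 (edgeR adjusted p = 0.0267), and with an offset for GC content and length 0.12 (edgeR adjusted p = 0.157). As for Nid1, calls over all genes also went up when libraries were left out, to 4699 without control replicate 1 and 3680 without both, against 2584.

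Thbd (chr2:148404471-148408188), thrombomodulin, is the surface receptor that turns thrombin towards activating protein C. It had 42, 32 and 35 counts in circSlc17a5 libraries, against 38, 29 and 33 counts in control libraries, or 0.43 to 0.76 TPM over the 6 libraries. The groups overlapped, and the log2 fold change was 0.07 (SE 0.209, edgeR adjusted p = 0.82). It turned to -0.02 without circSlc17a5 replicate 1 and to -0.01 without control replicate 2. Procr, the endothelial protein C receptor of the same pathway, was at 188.4, 170.2 and 171.3 TPM in circSlc17a5 libraries, against 166.9, 148.6 and 160.9 TPM in control libraries. Its counts were 3644, 3685 and 3619 in circSlc17a5 libraries, against 3698, 3554 and 3674, and the edgeR log2 fold change was -0.05 (adjusted p = 0.603). On log2(TPM + 1) the median of all tested genes was itself at 0.14.

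**Figure D2:**
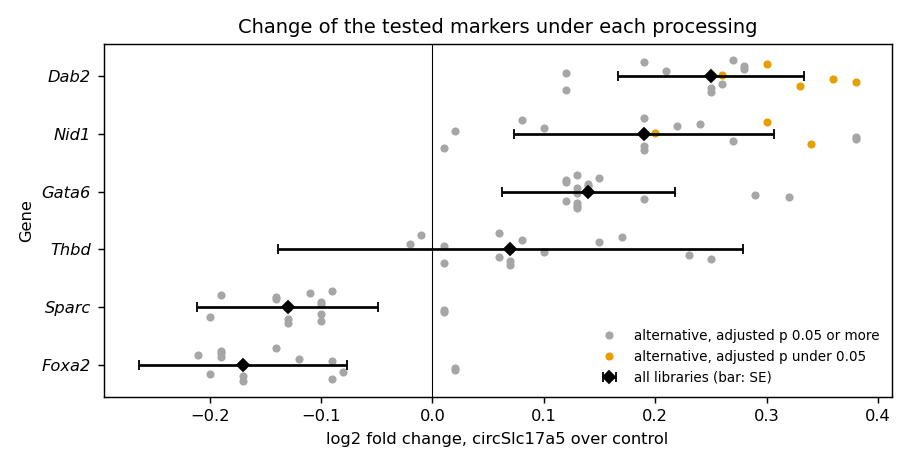
Log2 fold change, circSlc17a5 over control, of the 6 tested markers. Diamonds are the edgeR estimate from all libraries with its SE, and small points are the 16 alternatives, coloured orange where the adjusted p was under 0.05, which happened for Dab2 in 5 and for Nid1 in 3.

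Of the 6 tested markers, 3 (Gata6, Dab2 and Foxa2) had groups that did not overlap in normalised CPM, against 42.6% of all tested genes. Gata6 and Dab2 were higher in the circSlc17a5 libraries and Foxa2 was lower. Without both libraries that stood apart the log2 fold change was 0.12 for Gata6, -0.20 for Foxa2, -0.20 for Sparc and 0.25 for Thbd, and none of these 4 was called (edgeR adjusted p = 0.413, 0.24, 0.166 and 0.5). Across the 6 libraries, on log2(TPM + 1), Dab2, Gata6, Thbd and Nid1 correlated with each other at Pearson r between 0.76 and 0.96. Sparc had r between 0.12 and 0.36 with the others, and Foxa2 between 0.27 and 0.56. These r values describe 6 libraries that fall into the groups and share the TPM scaling, and they are given without a test.

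The genes with the most similar pattern to each marker were ranked among 7896 or 7897 genes by the same measure. For Sparc they were Tamm41 (r = 0.9927), Hexa and Myo1e. For Gata6 they were Slc8b1 (r = 0.9984), Sdc1 and Chaf1a, and for Foxa2 Cdkn2c (r = 0.9834), Psg16 and Tmem251. For Dab2 they were Zfp180 (r = 0.9998), Afdn and Fndc3b, for Nid1 Bod1l (r = 0.9990), Usp15 and Arhgef40, and for Thbd Pgd (r = 0.9973), Ythdf2 and 2410004B18Rik.

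The other listed genes of the parietal endoderm differed widely in level. Of 17 listed, 15 had a row, 12 were at 1 TPM or more, and 12 were tested. Of these, 4 rose and 1 fell, where 11.8% and 10.2% of all tested genes did, and their median log2 fold change was 0.16, against 0.00 over all tested genes. Plat, tissue plasminogen activator, rose: it had 136.1, 109.8 and 108.9 TPM in circSlc17a5 libraries, against 79.6, 51.5 and 67.6 TPM in control libraries, without overlap (log2 fold change 0.65, SE 0.112, edgeR adjusted p = 0.00641). Lamc1, the laminin gamma 1 chain, rose with 65.2, 44.9 and 49.0 TPM against 39.7, 28.3 and 35.6 TPM in control libraries (log2 fold change 0.43, edgeR adjusted p = 0.0261). Col4a1, a chain of type IV collagen, rose by a log2 fold change of 0.34 (edgeR adjusted p = 0.0265), and Snai1, a zinc finger repressor, by 0.31 (edgeR adjusted p = 0.0285). Krt18, a keratin of simple epithelia, fell: it had 875.9, 839.4 and 888.0 TPM in circSlc17a5 libraries, against 868.6, 1121 and 1132 TPM in control libraries (log2 fold change -0.46, edgeR adjusted p = 0.0298). Vim, an intermediate filament gene of many cell types, was at 1913 ± 130.2 TPM in circSlc17a5 cells and 2015 ± 238.4 TPM in control cells (SD, n = 3 each) and did not pass the threshold (edgeR adjusted p = 0.109). Of the 5 calls, the one of Plat held with each library left out, and the other 4 were lost without circSlc17a5 replicate 1 (edgeR adjusted p = 0.111 for Lamc1, 0.11 for Col4a1 and 0.119 for Krt18). The same 4 were also lost without circSlc17a5 replicate 3 and without control replicate 2 or 3, and Snai1 reached its highest edgeR adjusted p, 0.107, without circSlc17a5 replicate 3. With the GC and length offset 2 rose, Plat and Snai1, and 1 fell. Without circSlc17a5 replicate 1, 2 of 13 tested rose and 0 fell, and with the replicate block 6 rose and 2 fell. Over all genes 2657 were called with the offset, 462 without circSlc17a5 replicate 1 and 4429 with the block, against 2584. Nid2, Pth1r and Fst had at most 0.06, 0.09 and 0.25 TPM in any library and were below the filter. Lama1 and Stra6 have no row in the table used here.

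Of 20 other genes of the primitive and visceral endoderm, 14 had a row, 5 were at 1 TPM or more and 6 were tested. Of these 6, 2 rose and 2 fell, where 11.8% and 10.2% of all tested genes did. Rbp4, the plasma retinol carrier, rose to 24.7, 25.9 and 22.4 TPM in circSlc17a5 libraries, against 13.3, 14.9 and 13.8 TPM in control libraries (log2 fold change 0.62, SE 0.118, edgeR adjusted p = 0.00926). Pdgfra, a receptor that marks primitive endoderm, rose with 1.76, 1.09 and 1.30 TPM against 0.71, 0.76 and 0.79 TPM in control libraries (log2 fold change 0.74, edgeR adjusted p = 0.0132), and this call was lost without circSlc17a5 replicate 1 (edgeR adjusted p = 0.0702). Bmp2 and Hhex, a growth factor and a homeobox factor, fell by 0.47 and 0.44 on the log2 scale (edgeR adjusted p = 0.0199 and 0.0294), and both calls were lost without circSlc17a5 replicate 1 (edgeR adjusted p = 0.0927 and 0.121), circSlc17a5 replicate 2 or control replicate 3. Hhex also lost its call without circSlc17a5 replicate 3 or control replicate 2. Afp, alpha-fetoprotein of visceral endoderm, was at 8.28 ± 0.445 TPM in circSlc17a5 cells and 6.04 ± 0.616 TPM in control cells (SD, n = 3 each; edgeR adjusted p = 0.0843). It was called with the GC and length offset (edgeR adjusted p = 0.0428), without control replicate 1 (0.0345) and by limma on FPKM (0.049). It was not called by DESeq2 (adjusted p = 0.187) or without both libraries that stood apart (edgeR adjusted p = 0.0846). With the offset 3 of the 6 rose and 2 fell. Hnf4a, Ttr, Apoa4, Apob, Dkk1 and Otx2 have no row in the table used here.

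Markers of neighbouring cell types were set beside these. Over all tested genes, 11.8% rose and 10.2% fell. Of 8 genes of definitive endoderm and gut epithelium, 3 were tested and 1 rose: Epcam, an epithelial adhesion molecule, had 1.15, 1.25 and 1.22 TPM in circSlc17a5 libraries, against 0.64, 0.37 and 0.36 TPM in control libraries (log2 fold change 1.21, edgeR adjusted p = 0.0155, and 0.0637 without control replicate 3). Epcam also lost the call without circSlc17a5 replicate 1 or 2. Its list neighbours Foxa1 and Foxa3, relatives of Foxa2, stayed under 1 TPM in every library. Of 15 genes of the pluripotent epiblast, 4 were tested, and Sox2 rose to 5.42 ± 0.372 TPM in circSlc17a5 cells, against 1.19 ± 0.17 TPM in control cells (SD, n = 3 each; log2 fold change 1.99, edgeR adjusted p = 6.06e-05). Esrrb, an orphan nuclear receptor, fell to 0.16 ± 0.0458 TPM, against 0.817 ± 0.201 TPM in control cells (log2 fold change -2.50, edgeR adjusted p = 5.99e-04). Klf4, a zinc finger factor of many epithelia, was the most abundant of that list at 5.96 ± 0.577 TPM in circSlc17a5 cells and 4.27 ± 0.423 TPM in control cells (SD, n = 3 each; edgeR adjusted p = 0.0594). Of 6 tested trophoblast genes, Cdx2 fell by 0.46 on the log2 scale (edgeR adjusted p = 0.0282, and 0.122 without circSlc17a5 replicate 1), a call that DESeq2 did not make (adjusted p = 0.0536), and the other 5, among them Ets2 and Gata2, did not pass the threshold. Cdx2 also lost the call without circSlc17a5 replicate 2 or 3 and without control replicate 2 or 3. Of 7 tested endothelial genes none passed the edgeR or the DESeq2 threshold, where edgeR called 22% of all tested genes. Of the 7, 2, Flt1 and Plvap, had an unadjusted edgeR p under 0.05, against 39.1% of all tested genes. Without both libraries that stood apart, Cdh5 rose (log2 fold change 1.15, edgeR adjusted p = 0.0189) and Plvap and Eng, an endothelial TGF-beta co-receptor, fell (log2 fold changes -0.59 and -0.72, edgeR adjusted p = 0.0131 and 0.0313). Without control replicate 1 alone, Cdh5 rose and Plvap fell (edgeR adjusted p = 0.0241 and 0.00667). Over all genes 3680 were called without both libraries and 4699 without control replicate 1, against 2584 with all. Counts were low: Cdh5 had 30 and 35 in circSlc17a5 replicates 1 and 3, against 14 and 14 in control replicates 2 and 3. The omitted control replicate 1 had 35. Eng had 37 and 44 counts in the same circSlc17a5 libraries, against 63 and 65. Of 6 tested mural and fibroblast genes, Pdgfrb rose to 0.74 ± 0.0436 TPM in circSlc17a5 cells, against 0.287 ± 0.0351 TPM in control cells (SD, n = 3 each; log2 fold change 1.18, edgeR adjusted p = 0.00458). Without control replicate 1, 4 of 6 rose: Pdgfrb, Acta2, Tagln and Col1a2, the last 3 with edgeR adjusted p = 0.025, 0.0188 and 0.0107. Acta2, Tagln and Col1a2 were high in the libraries that stood apart: Col1a2, a fibrillar collagen, had 0.09, 2.90 and 0.89 TPM in circSlc17a5 libraries, against 5.58, 0.03 and 0 TPM in control libraries. That setting drops the high control and keeps the high circSlc17a5 library, so it cannot tell a rise from the choice of library. Without both libraries, 3 genes of the list were tested and 1, Pdgfrb, rose. Col1a1 had 2.37, 6.62 and 3.30 TPM in circSlc17a5 libraries, against 12.5, 3.33 and 3.14 TPM in control libraries (edgeR adjusted p = 0.284), and Col3a1 was at 64.6 ± 6.34 TPM in circSlc17a5 cells and 51.6 ± 5.59 TPM in control cells (SD, n = 3 each; edgeR adjusted p = 0.234).

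**Figure D3:**
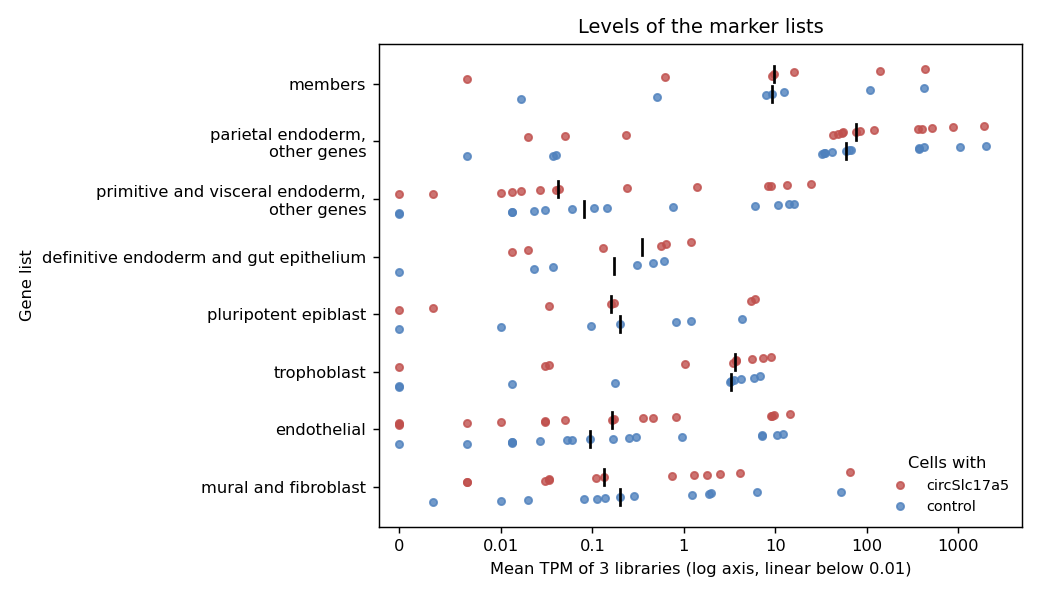
Mean TPM over 3 libraries of each gene with a row, by marker list, with circSlc17a5 above control in each list and a vertical bar at the list's median, on a log axis that is linear below 0.01. Of the 15 other parietal endoderm genes 12 lie at 1 TPM or more, against 5 of 14 other primitive and visceral endoderm genes and 4 of 17 endothelial genes. These counts describe the lists and do not name a cell type.

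Relatives and partners of the markers were described in the same way. Of 35 listed, 29 had a row and 20 were tested, of which 5 rose and 1 fell, where 11.8% and 10.2% of all tested genes did. With the GC and length offset 3 rose and 2 fell, and without circSlc17a5 replicate 1, 3 of the 6 calls were lost. In these settings 2657 and 462 of all genes were called, against 2584. Lrp1 and Lrp8, which encode endocytic receptors, rose by log2 fold changes of 0.36 and 0.49 (edgeR adjusted p = 0.0315 and 0.0136). Both lost the call without circSlc17a5 replicate 1 (edgeR adjusted p = 0.115 and 0.0604) and with the GC and length offset (log2 fold changes 0.15 and 0.29, edgeR adjusted p = 0.113 and 0.0599). Lrp1 also lost it without circSlc17a5 replicate 2 and without control replicate 2 or 3. F3, tissue factor, which starts clotting, rose with 32.4, 28.3 and 29.1 TPM against 19.4, 13.5 and 18.6 TPM in control libraries (log2 fold change 0.62, edgeR adjusted p = 0.00607). F2rl1, a protease-activated receptor, rose by 0.64 (edgeR adjusted p = 0.008). Smoc1, a SPARC-related matrix gene, fell and was under 0.5 TPM in every library (log2 fold change -1.37, edgeR adjusted p = 0.0218, and 0.0829 without circSlc17a5 replicate 2). Its call, on 6 to 29 counts a library, was also lost without circSlc17a5 replicate 1 or 3 and without control replicate 2 or 3. Tfpi, the inhibitor of tissue factor, did not pass the threshold (log2 fold change -0.05, edgeR adjusted p = 0.659).

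Of the other GATA factors, Gata2 had 9.68, 8.25 and 8.80 TPM in circSlc17a5 libraries, against 7.27, 6.50 and 6.71 TPM in control libraries (log2 fold change 0.20, edgeR adjusted p = 0.0934). Gata3 had 3.00 to 4.12 TPM, and Gata1 had 1 count in control replicate 1 and 0 in the other 5 libraries. Gata5 has no row in the table used here.

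At the transcript level none of the 12 tested forms of the markers was called by edgeR, against 0.00708% of 28266 transcripts tested, which is 2 transcripts. DESeq2 called none of these forms either, and 3 of the 12, all of Sparc, had an unadjusted edgeR p under 0.05, against 14.7% of all tested transcripts. Sparc reads were split over 3 forms. XM_030245730.1, for which no GENCODE sequence was linked, took 64.2%, 70.7% and 69.1% of them in circSlc17a5 libraries, against 74.2%, 88.5% and 83.0% in control libraries. NM_009242.5 took 27.0%, 21.4% and 22.9% in circSlc17a5 libraries, against 18.9%, 8.3% and 12.4% in control libraries. NM_001290817.1 took 8.8%, 7.9% and 8.0% in circSlc17a5 libraries, against 6.8%, 3.2% and 4.5% in control libraries. For each form the groups did not overlap, which was so for 24.9% of 24976 tested transcripts of genes with several forms. The exact two-sided permutation test gave p = 0.1, the smallest that 3 libraries against 3 can give. The edgeR log2 fold changes were -0.41 (SE 0.132, adjusted p = 0.273), 0.73 (SE 0.261, adjusted p = 0.305) and 0.65 (SE 0.234, adjusted p = 0.305). The ratio of the 2 forms that differ by the 3 capital bases was 3.05, 2.70 and 2.86 in circSlc17a5 libraries, against 2.78, 2.60 and 2.75 in control libraries, so those groups overlapped.

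Dab2 reads were split over 9 forms. Those with the 654-base exon took 90.9%, 93.8% and 97.9% in circSlc17a5 libraries, against 91.2%, 11.6% and 45.2% in control libraries. The 3 forms linked to GENCODE and lacking it took 0 of 1246, 0 of 1095 and 0 of 1080 estimated reads in circSlc17a5 libraries, against 1.9%, 48.4% and 11.2% in control libraries. The floor of 3 counts, over all Dab2 reads, is a share of 0.241%, 0.274% and 0.278% in the circSlc17a5 libraries. It is not an upper limit, as reads away from the long exon and its junctions do not tell these forms apart. The 4 forms with no link to GENCODE, in which the exon was not determined, took 9.2%, 6.2% and 2.1% in circSlc17a5 libraries, against 6.9%, 40.1% and 43.6% in control libraries. Control replicate 1 resembled the circSlc17a5 libraries in these shares, and control replicates 2 and 3 did not. Each split is an estimate of the authors' counting from short reads shared between forms, and the floor shares cover counting error only.

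**Figure D4:**
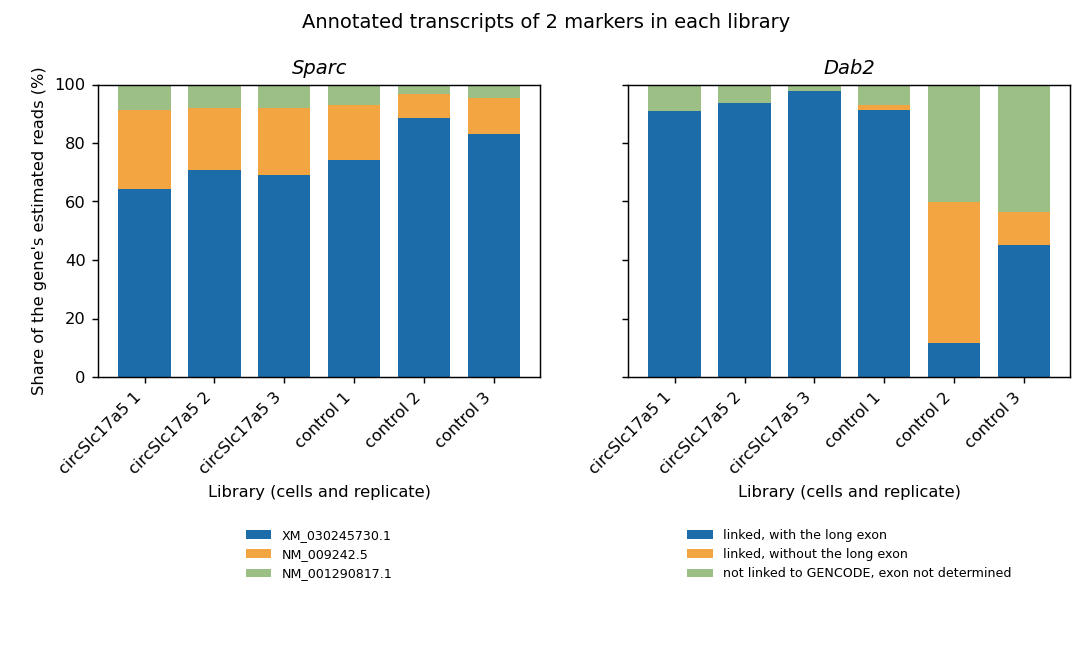
Share of the estimated reads of Sparc (left) and Dab2 (right) given to each annotated form, in percent, for circSlc17a5 libraries 1 to 3 and then control libraries 1 to 3. The Sparc form XM_030245730.1 lies between 64.2% and 70.7% in circSlc17a5 libraries and between 74.2% and 88.5% in control libraries, and the 3 Dab2 forms linked to GENCODE and lacking the long exon have reads in the 3 control libraries and 0 in the circSlc17a5 libraries. None of these 3 Dab2 forms passed the filter on low counts. Groups did not overlap for 24.9% of 24976 tested transcripts of genes with several forms. The exon was not determined in the unlinked Dab2 forms.

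Gata6 reads went mostly to NM_010258.3, with 98.8%, 97.1% and 93.6% in circSlc17a5 libraries, against 96.2%, 89.1% and 95.1% in control libraries. Foxa2 reads went to NM_001291065.1 at 95.2% or more in every library. Nid1, Thbd and Sox7 each have 1 form in the table.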

How the data were processed

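Per the labels' protocols, TRIzol was used for total RNA and a SMARTer kit for the mRNA libraries. Values deposited by the authors, per gene and per transcript, are expected counts and, scaled by length and library, TPM and FPKM. Tools named in the submitters' processing notes, with no role, are RSEM 1.2.12, HISAT2 2.0.4 and Bowtie2 2.2.5. The deposited log2 fold changes, p-values and q-values come from DESeq2, per the file headers. No source used here names the genome build; all 7 markers have the start and end that RefSeq gives in GRCm38.p6. The 18 per-sample columns of the comparison table were not used, and each repeats the gene table.

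Counts were rounded, filtered with filterByExpr, scaled by TMM and tested over all genes with edgeR 4.0.16 in R 4.3.3 (quasi-likelihood test, two-sided, Benjamini-Hochberg adjustment), with no further term. The SE of a log2 fold change is its size over the root of the F statistic. DESeq2 1.42.0 and limma 3.58.1 on log2(value + 1) or log2(TPM + 0.1) were alternatives. The GC and length offset used splines with 5 degrees of freedom on the longest protein-coding GENCODE vM21 transcript, which 98.2% of tested genes had. The test was checked on simulated data.

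The markers, the 8 other lists and the rules were chosen with earlier results of these data known. From each list the text names the 2 called genes with the smallest adjusted p in each direction and the 2 with the highest TPM, all SoxF, GATA, FOXA, nidogen and protein C receptor genes, and for each tested marker the 3 genes of at least 5 TPM with the highest r. Snai1, Col4a1, Pth1r, Fst, Afp, Lrp1, Lrp8, F2rl1 and the endothelial and mural examples were added after their values were seen. A gene that the rule names is not reported here. Same-numbered libraries are not said to share a culture, so the numbers were not taken as pairs. Their deviations from the group mean correlated at 0.219, 0.0678 and 0.0649, and those of libraries with different numbers between -0.314 and 0.31. Deviations from a mean of 3 libraries are tied to each other, so these values cannot decide the pairing.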

Additional observations from a re-analysis of the deposited data

How the results depend on the processing

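None of the markers was called with RLE size factors, DESeq2, no filter, FPKM, the GC and length offset, or that offset with the replicate block. With limma on log2(TPM + 1) and log2(TPM + 0.1), 1 was called: Dab2, at log2 fold changes of 0.36 and 0.38 (adjusted p = 0.0498 and 0.0443). On these scales the median of all tested genes was itself at 0.14 and 0.17, and 2503 and 2605 genes were called. With the replicate block, 2 were called, Dab2 at 0.26 (edgeR adjusted p = 0.0104) and Nid1 at 0.20 (edgeR adjusted p = 0.0421), and over all genes the calls went to 4429, against 2584; the numbers share no stated pairing. With the 2 libraries that stood apart left out, 2 were called, Dab2 at 0.33 (edgeR adjusted p = 0.0267) and Nid1 at 0.34 (edgeR adjusted p = 0.0486). Over all genes the calls then went to 3680. With each library left out in turn, between 0 and 2 were called, Dab2 lay between 0.19 and 0.30 and Nid1 between 0.08 and 0.30, and the calls over all genes lay between 462, without circSlc17a5 replicate 1, and 4699, without control replicate 1; both Dab2 and Nid1 were called without control replicate 1. Of the 20 genes called in the other lists, 8 kept the call with each library left out and 12 lost it without circSlc17a5 replicate 1. The cause was not tested. Ranked by counts instead of TPM, which does not correct for length, Nid1 stood at a mean rank of 163, Sparc at 141 and Dab2 at 3448. DESeq2 called 2131 transcripts, against 2 by edgeR, and none of the markers' forms. Thbd, with 29 to 42 counts a library, is limited by depth.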
